A study of Mus musculus with 9 samples.

Results

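The 9 membrane adenylyl cyclases (Adcy1 to Adcy9) and the receptor for the neuropeptide PACAP (Adcyap1r1) were followed in mouse lung mRNA. These 10 genes were picked by symbol from a table of 21884 genes; 9 carried their symbol in the table, and Adcyap1r1 was named from its Ensembl identifier. The libraries came from male BALB/c mice, an inbred laboratory strain, which entered the study at 6 weeks of age and were killed on day 28, with 3 mice in each of 3 groups. Naive mice received saline. OVA mice, a model of allergic asthma, were injected into the peritoneum with 50 µg ovalbumin and 1 mg aluminium hydroxide on days 0, 7 and 14. They were then given 400 µg ovalbumin through the nose each day from day 21 to day 27. OVA+PM2.5 mice had the same treatment plus daily nasal drops of fine airborne particles (PM2.5), begun 7 days before the first injection. The labels name no transgene or deletion and no group given particles without ovalbumin. Nothing in the labels names litters or batches, so p-values speak only for the spread among these 9 samples.

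Membrane adenylyl cyclases make cyclic AMP (cAMP) from ATP when a receptor on the cell surface activates the stimulatory G protein. The family divides by its regulation: Adcy1, Adcy3 and Adcy8 encode enzymes stimulated by calcium and calmodulin, Adcy2, Adcy4 and Adcy7 enzymes stimulated by G protein beta-gamma subunits, Adcy5 and Adcy6 enzymes inhibited by calcium, and Adcy9 an enzyme with little response to forskolin. The PACAP receptor couples to the stimulatory G protein, and in the airways cAMP is known for relaxing smooth muscle, driving ciliary beating and tightening the endothelium.

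The deposited values were FPKM, fragments per kilobase of gene model, scaled to the fragments of the library. Each library rested on 12142765 to 15748051 fragments, as recovered from the FPKM steps. The labelled tissue was lung, and the OVA+PM2.5 libraries stood apart in their cell type markers. In replicate 1 the summed FPKM of 10 skeletal muscle markers was 14854, with 55.1 and 281 in replicates 2 and 3, against 0.983 to 5.79 in the Naive and OVA libraries. In replicate 2 the 12 cardiac and atrial markers summed to 5639 FPKM, with 293 and 212 in replicates 1 and 3, against 43.7 to 327. In replicate 3 the 10 brown fat and adipose markers summed to 4484 FPKM, with 728 and 24.8 in replicates 1 and 2, against 3.06 to 178. The 10 alveolar type 2 markers summed to 1038 and 1416 FPKM in OVA+PM2.5 replicates 1 and 3, below the 5703 to 28706 of the Naive and OVA libraries, and to 10665 in replicate 2. Results that rest on OVA+PM2.5 are therefore given with and without single libraries. In whole tissue, fewer cells of a type and less RNA per cell cannot be told apart.

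Levels could be set beside each other between members only after a correction for length. Multiplying FPKM by the summed length of all annotated transcripts of a gene gave whole fragments, to within 0.01, for 17541 of 18226 genes (96.2%), and by the non-redundant exon length for 14.7%. The deposited FPKM of a gene with many annotated transcripts is thus divided by more than its own length. This factor was 1.00 for Adcy2, with 1 transcript, 1.03 for Adcy5, 1.33 for Adcy1, 2.22 for Adcy8, 2.62 for Adcyap1r1, 2.68 for Adcy9, 2.73 for Adcy4, 2.86 for Adcy6, 3.91 for Adcy7 and 4.13 for Adcy3, with 8 transcripts. All 10 members gave whole fragments this way. Below, "length-corrected FPKM" means FPKM per non-redundant exon length and is used to compare members; plain FPKM is the deposited value and is used to compare libraries, where the factor cancels before the pseudocount.

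In Naive lung the leading cyclases by length-corrected FPKM were Adcy7 at 15.4 ± 4.47, Adcy4 at 14.8 ± 3.79 and Adcy6 at 10.8 ± 1.82 (SD, n = 3 for each). Their ranges overlapped from one to the next, so their order was not resolved. A step without overlap separated Adcy6 from Adcy8 at 4.13 ± 0.336, which was followed with overlapping ranges by Adcy2 at 3.78 ± 1.29, Adcy5 at 3.05 ± 0.739 and Adcy9 at 2.73 ± 0.538. Adcy3 at 1.98 ± 0.423, Adcyap1r1 at 1.24 ± 0.281 and Adcy1 at 0.531 ± 0.196 closed the order, each below the last library of the gene before it. On the deposited scale the same 3 Naive libraries put Adcy4 at 5.44 ± 1.39 FPKM, Adcy7 at 3.92 ± 1.14, Adcy2 at 3.78 ± 1.29 and Adcy6 at 3.78 ± 0.635 (SD, n = 3), so Adcy2 stood level with Adcy6 there.

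**Figure D1:**
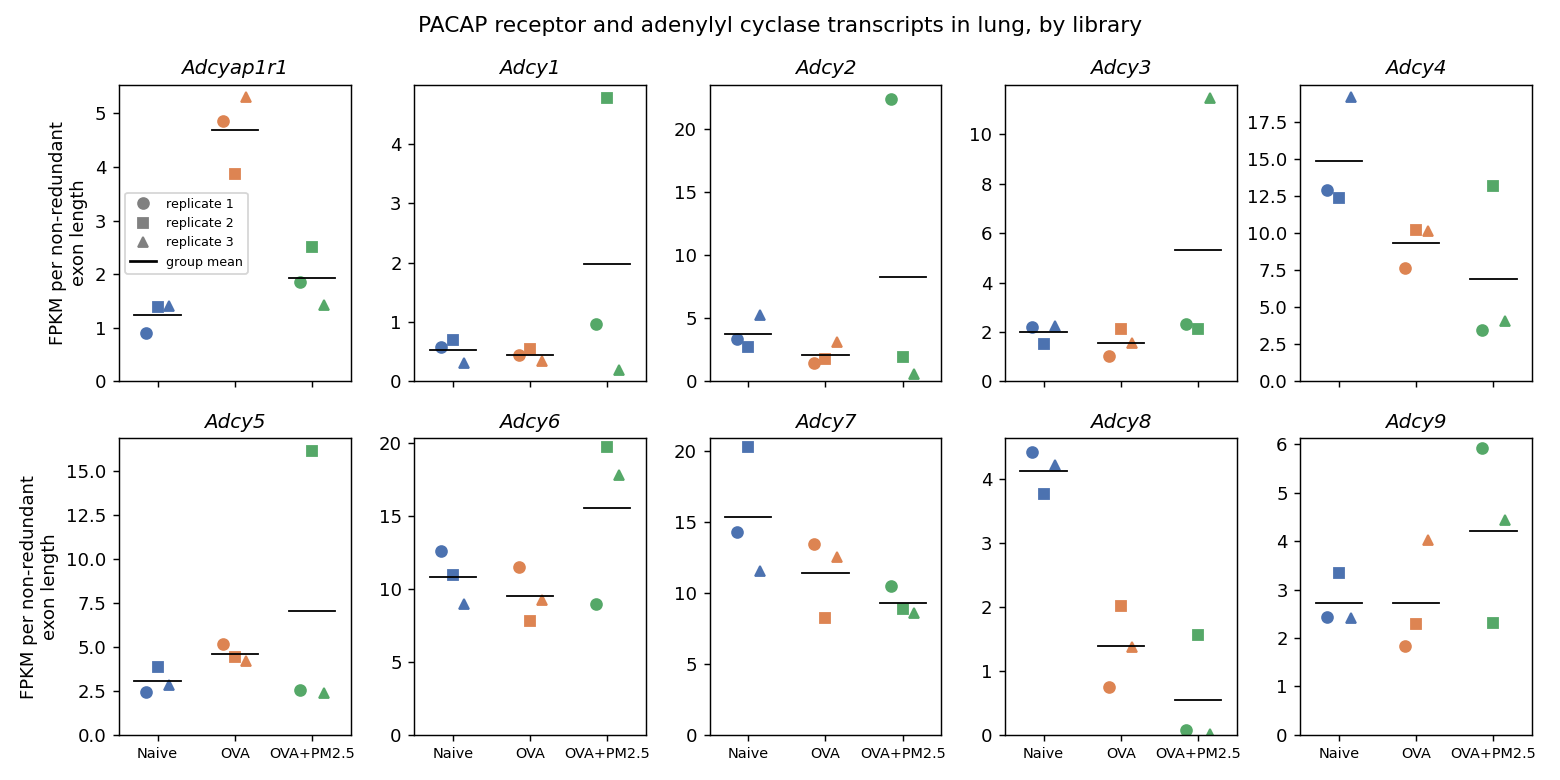
Length-corrected FPKM (vertical axis, from 0) of each member in the 9 libraries, with symbols for replicates and a black bar at the group mean. Adcyap1r1 is highest in the 3 OVA libraries, Adcy8 in the 3 Naive libraries, and Adcy1, Adcy2, Adcy3 and Adcy5 each have 1 OVA+PM2.5 library far above all others.

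The make-up of the family differed between libraries. Adcy4, Adcy6 and Adcy7 each held 15.7% to 34.1% of the summed length-corrected cyclase FPKM in every Naive and OVA library. In OVA, Adcy5 held 9.01% to 12.0%, against 4.41% to 6.50% in Naive, and Adcy8 held 1.73% to 5.12%, against 6.32% to 7.99%; neither pair of ranges overlapped. In OVA+PM2.5 Adcy2 led with 39.2% in replicate 1. Adcy6 led in the others, with 27.9% in replicate 2, where Adcy5 held 22.9%, and with 36.0% in replicate 3, where Adcy3 held 23.2%. The summed length-corrected FPKM of the 9 cyclases was 55.2, 59.5 and 57.0 in Naive replicates 1 to 3 and 43.4, 39.4 and 46.5 in OVA. In OVA+PM2.5 it was 57.2, 70.7 and 49.5. The OVA sums lay below all others without overlap; on the deposited scale they were 17.3 to 20.1 FPKM and OVA+PM2.5 replicate 3, at 17.4, fell among them.

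**Figure D2:**
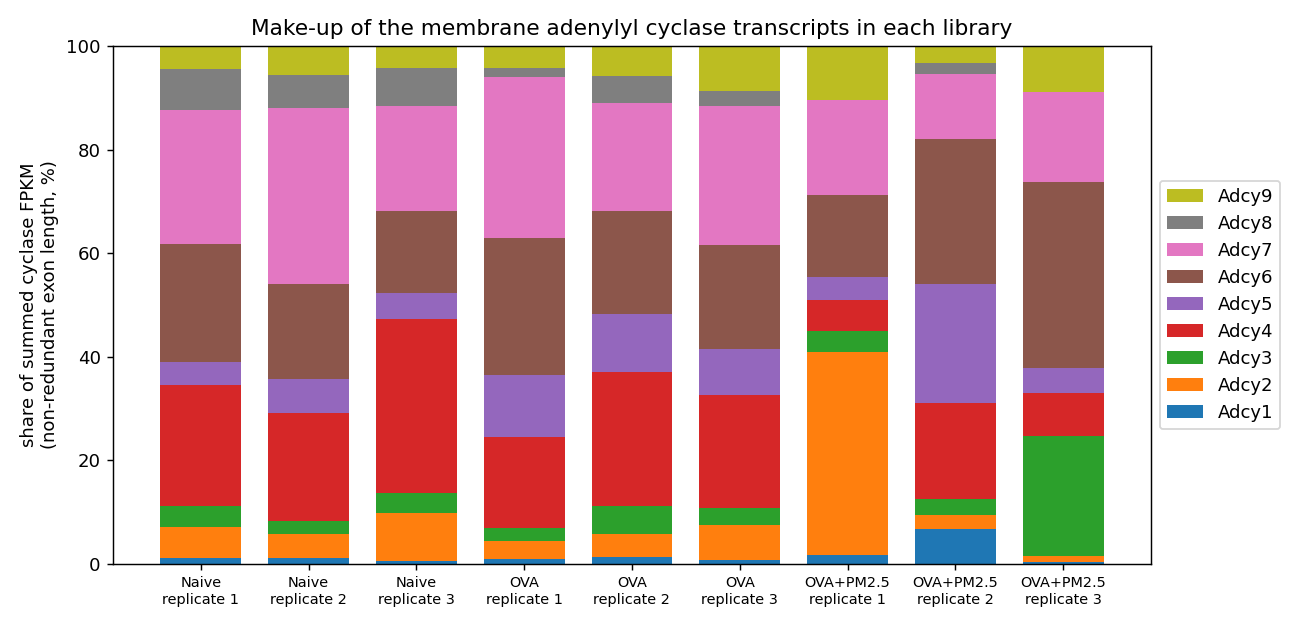
Share of the summed length-corrected FPKM of the 9 cyclases (vertical axis, %) held by each gene in each library (bars). Adcy4, Adcy6 and Adcy7 fill most of every Naive and OVA bar, and the 3 OVA+PM2.5 bars differ from each other through Adcy2, Adcy5 and Adcy3.

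Ovalbumin against saline separated the PACAP receptor and Adcy8 furthest. In this comparison 0 of the 10 members passed an adjusted p of 0.05 in limma fitted to all 9 libraries, where 0.0154% of the 12982 genes tested passed. At an unadjusted p under 0.05 there were 2 members, Adcyap1r1 and Adcy8, beside 11.4% of all genes. In limma fitted to the 6 Naive and OVA libraries alone, 6.89% of genes passed, and so did these 2 members, Adcyap1r1 as higher in OVA (2.98% of genes) and Adcy8 as lower (3.91%). Group ranges did not overlap for 4 members, with Adcyap1r1 and Adcy5 higher and Adcy4 and Adcy8 lower, a count to be read against 33.6% of all genes, 11.2% higher and 22.4% lower. The median log2 fold change was −0.16 over the members and −0.11 over all genes tested.

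Particles added to ovalbumin gave 0 of 10 members past the threshold against OVA in the 9-library limma fit, where 0.216% of genes passed, and 1 member, Adcyap1r1, at an unadjusted p under 0.05, where 27.0% did. The groups were apart for 1 of 10 members, Adcyap1r1 (lower), beside 26.9% of all genes, with 20.1% lower. OVA+PM2.5 replicate 2, the library with cardiac markers, was also the highest of its group in alveolar type 2 markers. Without it, the same fit called 25.4% of all genes, 20.5% as lower. Called with them were 4 members, Adcyap1r1, Adcy4, Adcy5 and Adcy8, all lower. Without OVA+PM2.5 replicate 1 or replicate 3 the fit called 0 members. Against Naive, 1 of 10 members passed, Adcy8 as lower, where 7.12% of genes passed and 5.59% passed as lower. At an unadjusted p under 0.05 there were 3, Adcy4, Adcy7 and Adcy8, beside 34.6% of genes. Adcyap1r1 (higher), Adcy7 and Adcy8 (both lower) did not overlap, beside 40.1% of all genes, 6.83% higher and 33.2% lower. Without replicate 2 the members called against Naive were Adcy4 and Adcy8, both lower, where 32.7% of genes passed and 27.4% passed as lower. Without replicate 1 or replicate 3 of OVA+PM2.5, 0 members were called against Naive. Fits to the 6 libraries of each comparison alone called 0% of genes and 0 members in both. At an unadjusted p under 0.05 these limma fits gave 1 member against OVA, beside 2393 of the 12982 genes. Against Naive they gave 3 members, beside 3594 of the 12982 genes. All 3 comparisons use the same 9 libraries, and each pair of them shares a group.

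**Figure D3:**
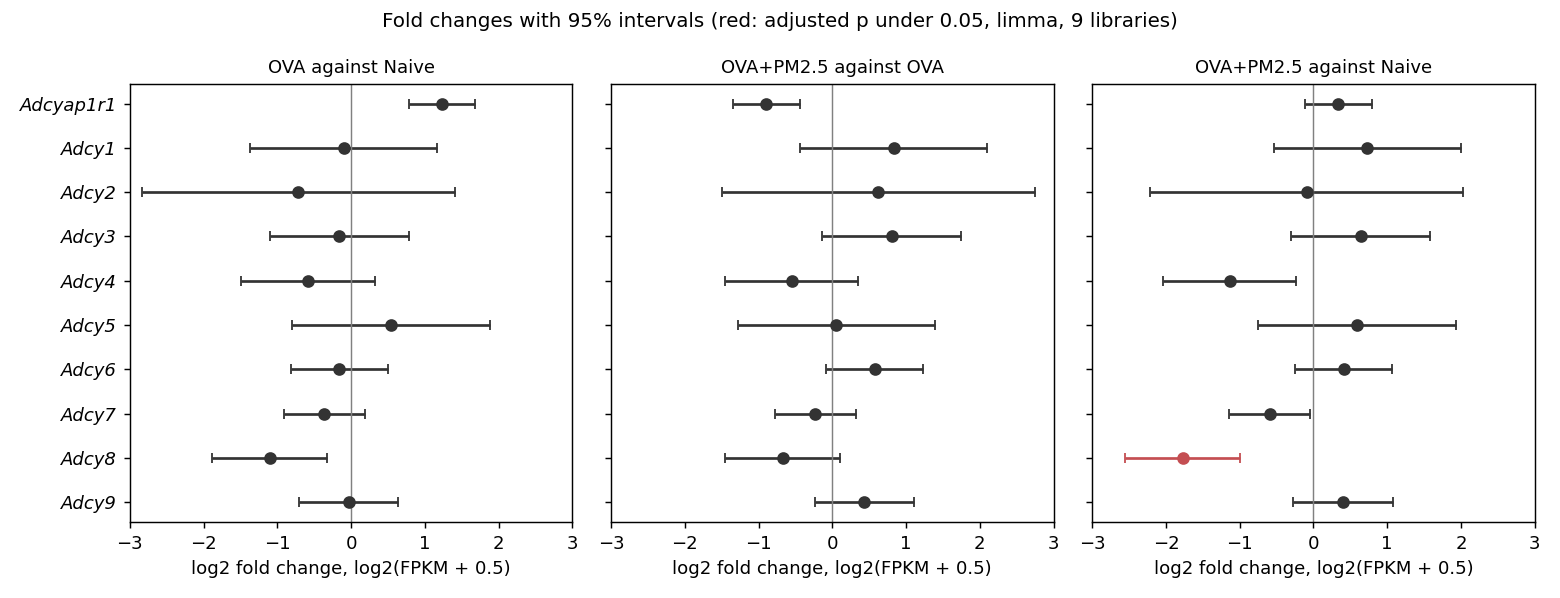
Log2 fold change (horizontal axis, on the log2(FPKM + 0.5) scale) of each member in the 3 comparisons, with 95% intervals from limma on 9 libraries. The red point, Adcy8 in OVA+PM2.5 against Naive at −1.77, is the only member past an adjusted p of 0.05; the intervals of Adcyap1r1 leave out 0 in both comparisons with OVA.

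The receptor Adcyap1r1 is the high-affinity PACAP receptor of nerve, endocrine and other tissues. Its transcript stood at 0.347, 0.531 and 0.535 FPKM in Naive replicates 1 to 3, from 93, 135 and 146 fragments. In OVA it stood at 1.85, 1.48 and 2.02 FPKM, from 462, 402 and 510 fragments, and in OVA+PM2.5 at 0.709, 0.952 and 0.541 FPKM, from 172, 250 and 114 fragments. Every OVA library lay above every other, and every OVA+PM2.5 library lay above the Naive ones, replicate 3 by little. Mean FPKM was 3.79 times as high in OVA as in Naive and 2.43 times as high in OVA as in OVA+PM2.5. The log2 fold change of OVA against Naive was 1.23 ± 0.20 (SE, limma on 9 libraries), with an adjusted p of 0.0768, short of the threshold, and 0.0453 without OVA+PM2.5 replicate 2. In limma on the 6 Naive and OVA libraries the adjusted p was 0.0197. That call was lost on leaving out Naive replicate 1, Naive replicate 3 or OVA replicate 3, with adjusted p up to 0.0760 and fold changes of 1.14 to 1.33 over the 6 libraries left out in turn. OVA+PM2.5 against OVA gave −0.89 ± 0.20 (adjusted p 0.0791, limma on 9 libraries, and 0.239 on the 6), and −1.02 with an adjusted p of 0.0101 without OVA+PM2.5 replicate 2. Against Naive the difference was 0.34 ± 0.20 (adjusted p 0.247). In the 9-library fit, leaving out any library other than OVA+PM2.5 replicate 2 gave no call of Adcyap1r1 in any comparison.

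Between Naive and OVA, the ciliated, club, B and plasma cell, and neuron and neuroendocrine marker sums rose without overlap. So did smooth muscle and pericyte markers, at 175 to 217 FPKM in Naive and 231 to 333 in OVA. Every other marker list overlapped or fell. T and NK cell markers fell, at 49.8 to 206 FPKM in Naive and 14.9 to 25.1 in OVA. The 12 ciliated cell markers summed to 181, 281 and 223 FPKM in Naive and to 597, 379 and 317 in OVA, with 0 markers at 0 in either group. The 9 club cell markers summed to 44754 to 81475 FPKM in Naive and 84516 to 202473 in OVA, and the 7 B and plasma cell markers to 75.3 to 94.6 and 547 to 1755. The 14 neuron and neuroendocrine markers summed to 2.61 to 4.03 and 4.19 to 4.71 FPKM, with the catecholamine enzyme gene Th among those at 0 in every OVA library. Set against the ciliated markers, Adcyap1r1 gave 1.89 to 2.39 FPKM per 1000 marker FPKM in Naive and 3.10 to 6.39 in OVA, without overlap. In OVA+PM2.5 replicates 1 to 3, where ciliated markers summed to 32.3, 286 and 76.5 FPKM, the values were 21.9, 3.33 and 7.08. All 3 lay above the Naive range and none below the OVA range. The ciliated sums of replicates 1 and 3, by which the receptor was divided, lay below every Naive and OVA sum. Neuron and neuroendocrine markers summed to 6.91, 7.15 and 4.37 FPKM in the same 3 libraries. The part of any of these cell types in the receptor's difference was not tested.

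The promoter window of Adcyap1r1 is printed with those of Adcy2, Adcy4 and Adcy5, as the receptor, 2 cyclases with 1 high OVA+PM2.5 library each and the leading cyclase that was lower in OVA. Each line gives the last 120 bases before the RefSeq start, 5′ to 3′ on the gene's strand, with GC boxes (GGGCGG, or its complement CCGCCC) in capitals.
Adcyap1r1, GRCm38.p6 chr6:55451858-55451977, plus strand: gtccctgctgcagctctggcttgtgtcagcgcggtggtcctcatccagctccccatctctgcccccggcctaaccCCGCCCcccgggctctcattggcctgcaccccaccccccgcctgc
Adcy2, GRCm38.p6 chr13:68999542-68999661, minus strand: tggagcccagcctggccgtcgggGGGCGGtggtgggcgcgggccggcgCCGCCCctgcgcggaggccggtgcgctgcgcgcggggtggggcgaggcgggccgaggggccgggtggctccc
Adcy4, GRCm38.p6 chr14:55784073-55784192, minus strand: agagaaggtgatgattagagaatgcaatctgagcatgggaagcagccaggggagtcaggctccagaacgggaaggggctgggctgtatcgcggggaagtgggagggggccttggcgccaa
Adcy5, GRCm38.p6 chr16:35154744-35154863, plus strand: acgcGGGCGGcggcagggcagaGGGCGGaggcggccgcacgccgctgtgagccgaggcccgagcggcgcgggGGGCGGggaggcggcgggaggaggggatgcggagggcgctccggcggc
The window searched was the 250 bases before the start, and 8 of the 10 members had 1 or more, 11 windows in all. Its GC content was 65.6% for Adcyap1r1, 73.2% for Adcy2, 78.0% for Adcy5 and 56.0% for Adcy4, against a median of 52.4% over 32851 windows. These windows leave out 1 chromosome, and shares of all windows below refer to them. GC boxes, searched on both strands, were present in 32.7% of all windows, with 1 in Adcyap1r1, 2 in Adcy2, 4 in Adcy5 and 0 in Adcy4. The cAMP response element TGACGTCA was in 0 of the 11 member windows and in 1.55% of all. Its core TGACG, which the full element contains, was in 1 window each of Adcy7 and Adcy9 and in 17.8% of all. The series title names the estrogen-related receptor Esrrg, and the letters TNAAGGTCA of that receptor family's element were in 0 member windows and 1.14% of all. The myogenic E-box CAGCTG was likewise in 0 member windows and in 13% of all. A match, or none, describes these letters only.

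Among the cyclases stimulated by calcium and calmodulin, Adcy8 fell in OVA+PM2.5 against Naive. It stood at 1.99, 1.69 and 1.90 FPKM in Naive, from 556, 450 and 542 fragments, and at 0.337, 0.909 and 0.618 FPKM in OVA. In OVA+PM2.5 it stood at 0.0355, 0.699 and 0.00908 FPKM, where replicates 1 and 3 rested on 9 and 2 fragments and replicate 2 on 192. Both treated groups lay below Naive without overlap, while OVA and OVA+PM2.5 overlapped through replicate 2. Mean FPKM in Naive was 2.99 times that in OVA and 7.49 times that in OVA+PM2.5. The log2 fold change of OVA+PM2.5 against Naive was −1.77 ± 0.34 (SE), with an adjusted p of 0.0340 in limma on 9 libraries. It was lower in 3 of 3 libraries. In limma on the 6 libraries of this comparison the adjusted p was 0.111. Leaving out any 1 of the 9 libraries other than OVA+PM2.5 replicate 2 also ended the call, with adjusted p up to 0.136 and fold changes of −2.17 to −1.55. OVA against Naive gave −1.10 ± 0.34, with an adjusted p of 0.312 on 9 libraries and 0.0323 on the 6. The call on the 6 was lost on leaving out any 1 of them but OVA replicate 2, with adjusted p up to 0.114. OVA+PM2.5 against OVA gave −0.67 ± 0.34 (adjusted p 0.243, limma).

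Endothelial markers were low in the same libraries. Their 12 members summed to 1038, 746 and 1061 FPKM in Naive, 225, 627 and 402 in OVA, with 64.5, 580.5 and 127 in OVA+PM2.5, with 0 markers at 0 in any group. The 5 libraries lowest in these markers were also the 5 lowest in Adcy8. The match was not particular to endothelial markers, since the same 5 were lowest in the alveolar type 1 and alveolar type 2 marker sums. Per 1000 FPKM of endothelial markers, Adcy8 gave 1.79 to 2.27 FPKM in Naive and 1.45 to 1.54 in OVA, a narrower gap than that of the gene itself and still without overlap. In OVA+PM2.5 replicates 1 to 3 it gave 0.550, 1.20 and 0.0714. The part of endothelial content in the difference of Adcy8 was not tested.

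Adcy1 and Adcy3, the other two of the calcium-stimulated enzymes and known from brain and olfactory cilia respectively, each had 1 high library. Adcy1 stood at 0.237 to 0.525 FPKM in Naive, 0.265 to 0.406 in OVA and at 0.727, 3.59 and 0.149 in OVA+PM2.5. Adcy3 stood at 0.362 to 0.542 FPKM in Naive, 0.251 to 0.516 in OVA and at 0.565, 0.515 and 2.78 in OVA+PM2.5. The high Adcy1 value was that of replicate 2, with the cardiac markers, and the high Adcy3 value that of replicate 3, with the brown fat markers. Neither gene passed the threshold in any comparison of the 9-library limma fit, with adjusted p of 0.290 to 0.961 for Adcy3 and Adcy1 against Naive and 0.247 to 0.355 against OVA. Whether the other tissues carry these transcripts was not tested.

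**Figure D4:**
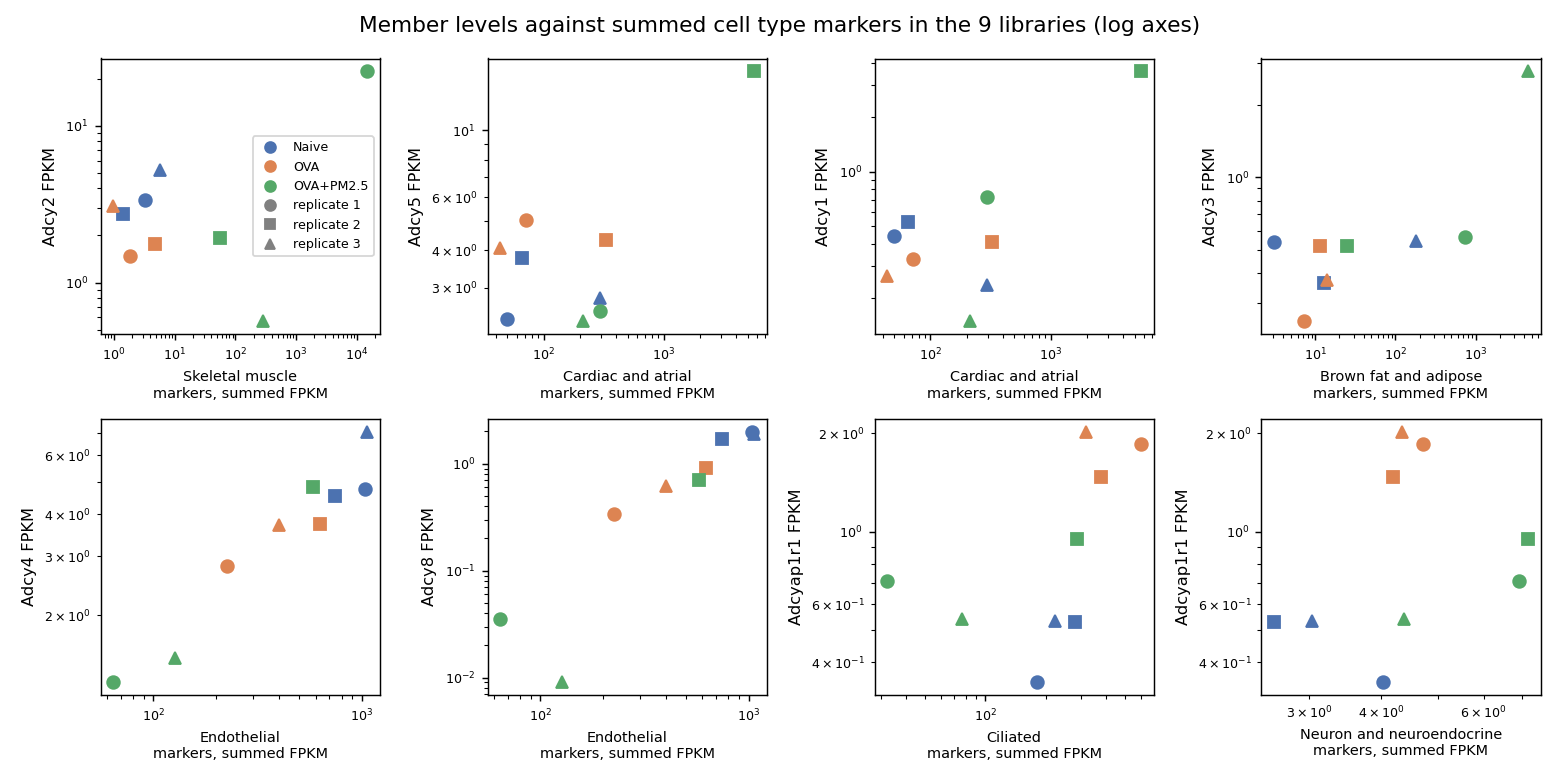
FPKM of a member (vertical log axis) against the summed FPKM of a cell type's markers (horizontal log axis), 1 point per library, coloured by group with symbols for replicates. Adcy2, Adcy5, Adcy1 and Adcy3 are each highest in the library with the highest skeletal muscle, cardiac or brown fat sum, Adcy8 and Adcy4 are lowest in the 2 libraries with the lowest endothelial sums, and Adcyap1r1 is highest in the 3 OVA libraries.

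Of the enzymes stimulated by beta-gamma subunits, Adcy4 was lower in OVA than in Naive without overlap and passed no test with all libraries. It stood at 4.74, 4.54 and 7.04 FPKM in Naive, 2.80, 3.74 and 3.72 in OVA, with 1.27, 4.83 and 1.49 in OVA+PM2.5, where replicate 2 fell within the Naive range. The log2 fold change was −0.59 ± 0.40 for OVA against Naive (adjusted p 0.596) and −1.14 ± 0.40 for OVA+PM2.5 against Naive (adjusted p 0.0888, limma on 9 libraries). Without OVA+PM2.5 replicate 2 the second of these was −1.64, with an adjusted p of 0.00241. Leaving out any other library gave no call of Adcy4 in the 9-library fit. The ratio to endothelial markers ran the other way from that of Adcy8: 4.57 to 6.63 FPKM per 1000 marker FPKM in Naive, 5.96 to 12.4 in OVA and 8.32 to 19.6 in OVA+PM2.5. The values in OVA+PM2.5 lay above those in Naive without overlap.

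Adcy7, an enzyme abundant in blood cells, was the member with the smallest spread within OVA+PM2.5 relative to its mean. It stood at 3.64, 5.18 and 2.95 FPKM in Naive, 3.44, 2.10 and 3.20 in OVA, with 2.67, 2.27 and 2.19 in OVA+PM2.5. OVA+PM2.5 lay below Naive without overlap, at −0.59 ± 0.24 and an adjusted p of 0.123 (limma on 9 libraries). Adcy2 stood at 3.35, 2.75 and 5.23 FPKM in Naive, 1.48, 1.75 and 3.10 in OVA, with 22.4, 1.93 and 0.566 in OVA+PM2.5. Its highest library, OVA+PM2.5 replicate 1, was the one in which all 10 skeletal muscle markers exceeded 10 times their highest Naive or OVA value, and its lowest was replicate 3 of the same group, where 4 of the 10 did. The log2 fold changes of Adcy2 were −0.72 ± 0.93, 0.63 ± 0.93 and −0.09 ± 0.93 for OVA against Naive, OVA+PM2.5 against OVA and OVA+PM2.5 against Naive, with adjusted p of 0.807, 0.690 and 0.952 (limma).

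Adcy5 and Adcy6, the calcium-inhibited pair, are the main cyclases of heart muscle. Adcy5 stood at 2.37, 3.76 and 2.77 FPKM in Naive and 5.05, 4.31 and 4.08 in OVA, apart without overlap, with a log2 fold change of 0.54 ± 0.59 and an adjusted p of 0.763 on 9 libraries and 0.118 on the 6 (limma). In OVA+PM2.5 it stood at 2.51, 15.8 and 2.32 FPKM. Replicates 1 and 3 lay within or just below the Naive range and below every OVA library, and replicate 2, in which 10 of 12 cardiac markers exceeded 10 times their highest Naive or OVA value, lay above all others. Against OVA the fold change was 0.06 ± 0.59 (adjusted p 0.961) and, without replicate 2, −0.77 with an adjusted p of 0.0345 in the 9-library limma fit and 0.0801 in the 2-group fit. Leaving out any other library gave no call of Adcy5 in the 9-library fit. The part of cardiac tissue in the level of Adcy5 was not tested. Adcy6 stood at 4.40, 3.82 and 3.13 FPKM in Naive, 4.03, 2.73 and 3.24 in OVA, with 3.14, 6.88 and 6.22 in OVA+PM2.5, so replicates 2 and 3 of that group were the 2 highest. Its log2 fold change of OVA+PM2.5 against OVA was 0.57 ± 0.29 (adjusted p 0.237, limma).

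Adcy9 stood at 0.905, 1.25 and 0.901 FPKM in Naive, 0.688, 0.853 and 1.50 in OVA, with 2.21, 0.862 and 1.65 in OVA+PM2.5. The 2 highest values were those of OVA+PM2.5 replicates 1 and 3, and the groups overlapped in every comparison. Its log2 fold changes ran from −0.03 to 0.43, each with a SE of 0.30, and the adjusted p from 0.350 to 0.979 (limma). In the GENCODE annotation Adcy3 overlaps Cenpo, and Adcy2, Adcy6 and Adcy8 overlap predicted genes, on the opposite strand. Whether fragments were counted by strand is not given in the sources used here, so those genes carry that uncertainty.

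The rest of the pathway was read from 6 lists with 109 genes in the table, of which 84 passed the filter on low values. The 9-library limma fit called 0 of the 84 in OVA against Naive, with 7 at an unadjusted p under 0.05, beside 11.4% of all genes. It called 1 (lower) in OVA+PM2.5 against OVA and 11 (all lower) in OVA+PM2.5 against Naive. The shares of all genes called were the 0.0154%, 0.216% and 7.12% above. In OVA+PM2.5 against Naive the calls were 3 of 18 Gs-coupled receptors and peptides, 1 of 13 Gi-coupled receptors, 2 of 13 G protein subunits and chaperones, 2 of 13 cyclase regulators, 1 of 15 cAMP effectors and 2 of 12 CREB family genes and coactivators. The list medians of the log2 fold change were −0.68, −0.30, −0.61, −0.47, 0.15 and −0.35, against −0.33 over all genes. Without OVA+PM2.5 replicate 2 the 9-library fit called 1, 23 and 32 list genes in the 3 comparisons, 1.19%, 27.4% and 38.1% of the 84, beside 0.416%, 25.4% and 32.7% of all genes. Without any 1 Naive or OVA library it called 0 in each. Without OVA+PM2.5 replicate 1 it called 0 in OVA+PM2.5 against Naive. In that comparison those fits called 0 to 143 of all 12982 genes. None of the 11 was called in limma on the 6 libraries alone, where adjusted p was 0.111 to 0.128.

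The peptide that Adcyap1r1 binds was hardly measured. Adcyap1, which encodes PACAP, was listed at 0 FPKM in 8 of the 9 libraries and at 0.0227 in OVA replicate 1. Vip, the related vasoactive intestinal peptide, stood at 0.0313 to 0.125 FPKM in 8 libraries and at 6.63 in OVA+PM2.5 replicate 1. Of the receptors shared by both peptides, Vipr1 stood at 0.540 to 1.05 FPKM outside OVA+PM2.5 replicate 1, where it was 0.241. Vipr2 stood at 2.32, 1.82 and 1.74 FPKM in Naive, 1.49, 2.54 and 1.25 in OVA, with 0.338, 0.983 and 0.301 in OVA+PM2.5. Vipr2 fell in OVA+PM2.5 against Naive by 1.29 on the log2 scale (adjusted p 0.0436, limma on 9 libraries), and its OVA values spanned the Naive range. The PACAP receptor was thus the member of this receptor group with non-overlapping OVA and Naive libraries, and the difference in response between the 3 receptors was not tested.

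Some other receptors that act on the cyclases fell in OVA+PM2.5 against Naive. Others stood higher there, such as the adrenergic receptor Adra2a at a mean of 1.01 FPKM, against 0.253 in Naive. The prostaglandin E receptor Ptger2 fell by 0.83 ± 0.21 (adjusted p 0.04999, limma). The sphingosine 1-phosphate receptor S1pr3 stood at 15.8 to 21.2 FPKM in Naive, 10.6 to 11.5 in OVA and 7.81 to 9.02 in OVA+PM2.5, 3 ranges without overlap (−1.05 ± 0.18 in OVA+PM2.5 against Naive, adjusted p 0.0293, limma). The fit to the 6 Naive and OVA libraries called 7 of the 84 list genes, a count to be read against 6.89% of all genes. Higher in OVA were 2, the adenosine receptor Adora1 and the channel gene Cnga2, beside 2.98% of all genes. Lower were 5, the receptors Glp1r, Adrb1, Adrb3 and S1pr3 and the G protein subunit Gnb4, beside 3.91%. Glp1r, the receptor for the incretin GLP-1, stood at 8.50, 5.16 and 6.07 FPKM in Naive and 0.187, 2.08 and 1.35 in OVA (−2.22, adjusted p 0.0357 in the 6-library limma fit and 0.330 in the 9-library one). Adora1 stood at 0.260 to 0.387 FPKM in Naive and 0.867 to 1.12 in OVA (0.90, adjusted p 0.0303 and 0.475 in the same limma fits).

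Downstream of the enzymes, Cnga2, like the PACAP receptor, was highest in the 3 OVA libraries. This subunit of the cyclic nucleotide-gated channel, best known from olfactory neurons, stood at 0.283, 0.159 and 0.129 FPKM in Naive, 1.62, 1.04 and 1.76 in OVA, with 0, 0.173 and 0.0240 in OVA+PM2.5. OVA lay above both other groups without overlap (1.50 ± 0.22 against Naive, adjusted p 0.0663; OVA+PM2.5 against OVA −1.80 ± 0.22, adjusted p 0.0328, limma on 9 libraries). The second of these had an adjusted p of 0.239 in limma on its 6 libraries, and the call was also lost on leaving out any 1 Naive or OVA library. The cAMP-activated exchange factor Rapgef3 fell in OVA+PM2.5 against Naive by 1.19 on the log2 scale (adjusted p 0.0443), the inhibitory subunit Gnai2 by 1.03 (0.0466), the beta subunit Gnb4 by 1.13 (0.0385), the anchoring protein Akap12 by 1.91 (0.0397) and the calmodulin gene Calm2 by 1.14 (0.0471; limma adjusted p in each case). Sik1, a kinase that restrains CREB coactivators and is itself a cAMP-induced gene, stood at 13.8 to 15.9 FPKM in Naive, 12.4 to 16.6 in OVA and 4.70 to 8.91 in OVA+PM2.5 (−1.24 ± 0.26 against Naive, adjusted p 0.0390, limma). Creb3 fell by 1.01 (adjusted p 0.0493). Prkaca, the catalytic subunit of protein kinase A, stood higher in OVA+PM2.5 at 38.9, 42.0 and 68.9 FPKM, against 25.6 to 27.9 in Naive, without passing (0.85 ± 0.25, adjusted p 0.0617, limma). Adcy10, the soluble cyclase, stood at 0 to 0.128 FPKM throughout. Gnas, which encodes the stimulatory alpha subunit itself, was listed at 0.107 to 0.378 FPKM, and its values gave no whole fragments with the summed length, so its level was not read.

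**Figure D5:**
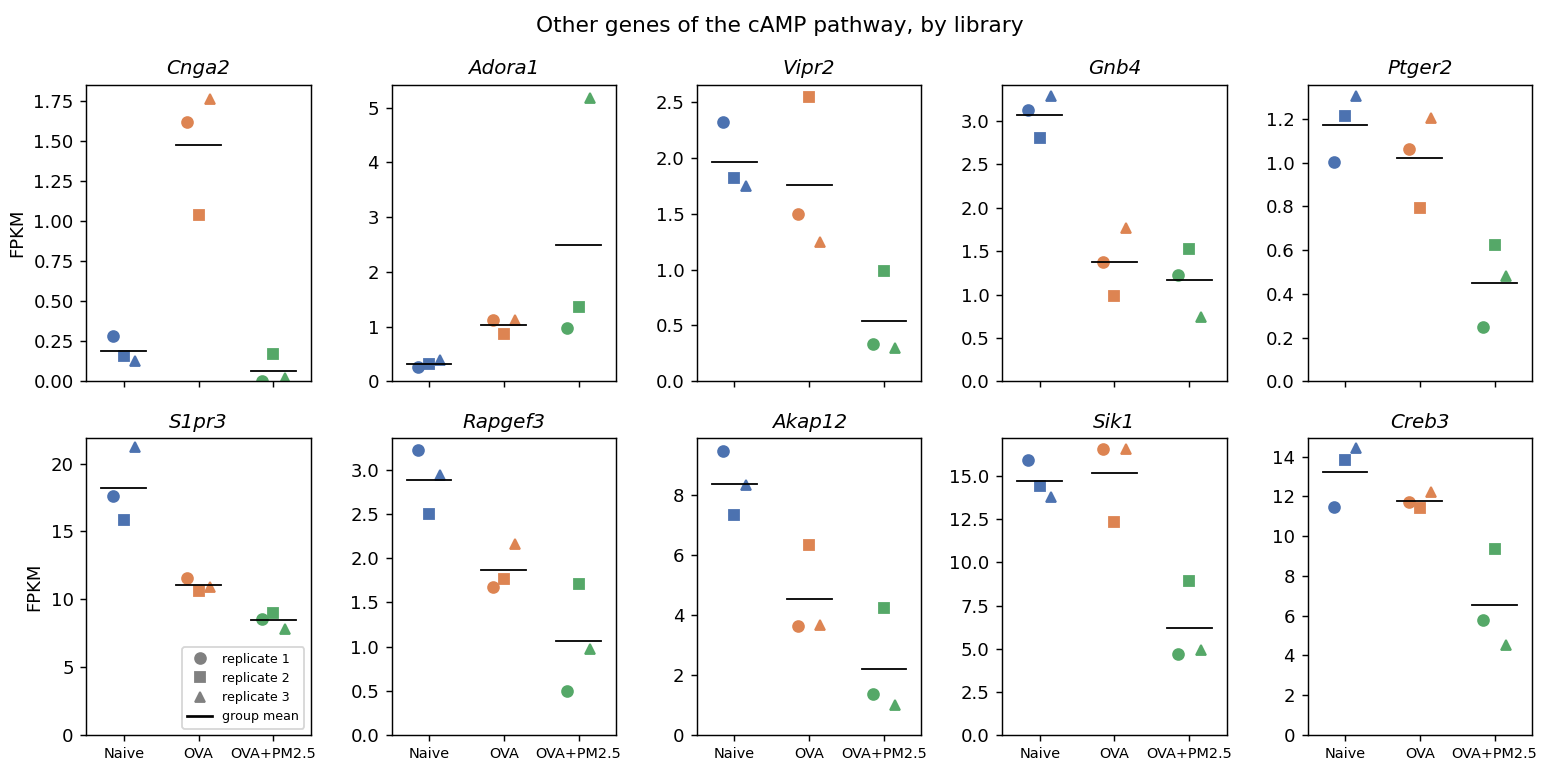
FPKM (vertical axis, from 0) of 10 other pathway genes in the 9 libraries, with symbols for replicates and a black bar at the group mean. Cnga2 is highest in OVA, Adora1 is lowest in Naive, and the 3 OVA+PM2.5 libraries of Ptger2, Vipr2, S1pr3, Sik1 and Creb3 lie below all others.

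Genes whose pattern over the 9 libraries was most like each member were found from the root mean square difference of log2(FPKM + 0.5), centred on each gene's own mean. For Adcyap1r1 the nearest of the 12982 genes were Kif21a at 0.10, Coro2a at 0.17, Tmem232 at 0.18, 2210408I21Rik at 0.19 and Vwa3b at 0.19 log2 units, against a median of 0.69 over all genes. Coro2a, for example, stood at 0.257 to 0.376 FPKM in Naive, 0.845 to 1.48 in OVA and 0.327 to 0.672 in OVA+PM2.5. The nearest to Adcy8 were Kank3, Ccdc42 and Dipk2a (0.15 each), and to Adcy4 Hfe and Fgd5 (0.13 and 0.15). For the members with 1 high library, the nearest were Lmcd1, Amotl1 and Map3k20 to Adcy2 (0.45 to 0.49), Slc8a1, Pdlim4 and Pcdh7 to Adcy1 (0.17 to 0.26), Stard10, Nacad and Slc25a13 to Adcy5 (0.19 to 0.31) and Hspd1, Agpat3 and Abhd6 to Adcy3 (0.14 to 0.16). Amotl1 stood at 49.6 FPKM in OVA+PM2.5 replicate 1 and at 4.42 to 8.11 in the other 8 libraries. For Adcy6 they were Yif1b, Mrpl10 and Map2k2, for Adcy7 Eif2ak4, Ubtd2 and Adat1, and for Adcy9 Lypla1, Tex2 and Acadsb (0.13 to 0.19). The libraries share depth, tissue make-up and group, so these likenesses describe this set of libraries only.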

How the data were processed

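Lung mRNA was measured in 9 mice, 3 in each of the Naive, OVA and OVA+PM2.5 groups, from poly(A) RNA with NEBNext Ultra libraries, per the labels' protocols. The deposited table held FPKM per gene and library, made by the authors. The genome build was GRCm39, per the submitters' processing notes. The sources used here give no aligner, counter or annotation. Blank symbols were filled by Ensembl identifier (8725 of 21884 genes; 75 stayed without). Genes with an FPKM of 0.5 or more in 3 or more of the 9 libraries (12982) were kept and tested as log2(FPKM + 0.5), which understates changes of low genes. Fold changes and tests came from limma 3.58.1 in R 4.3.3 with a variance trend: 1 fit of all 9 libraries (6 residual degrees of freedom), and, as an alternative, a fit of the 6 libraries compared. P-values were adjusted by Benjamini-Hochberg over all genes tested, threshold 0.05. The smallest p an exact permutation test can give with 3 libraries a group is 0.1.

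All 10 members passed the filter. FPKM steps between libraries gave whole fragments, within 0.001, for all 17298 genes that were above 0 in 2 or more libraries, which fed an added voom fit. For genes above 0 in very few libraries the search can fit almost any values, so this full share is partly fixed in advance. Lengths came from GENCODE vM21 (GRCm38), used for lengths only, since the build differs. Promoter windows are RefSeq's, on GRCm38.p6. Both recovery and test were checked on simulated data. The members, the pathway and marker lists and the tests were chosen with earlier results of these data known. A few genes that the rule selects are left out here. Named genes are all members, every pathway gene past the 9-library threshold with the 2 smallest p per list, and the nearest genes by pattern; the pathway genes called in the 6-library fit, Adcyap1, Vip, Vipr1, Adcy10 and Gnas were named after their values were seen, as were the fold limit of 10 on markers (at an FPKM above 5) and the marker ratios. The groups share replicate numbers, but libraries with the same number did not deviate together (correlations −0.17 to 0.28, over 0.1 in 3 of 9 pairs), so no pairing was used. Tables and figures were made with pandas 2.3.3, numpy 2.4.6 and matplotlib 3.10.9 under Python 3.11.15.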

Additional observations from a re-analysis of the deposited data

How the results depend on the processing

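The number of members called differed between settings. In OVA against Naive it was 0 of 10 in the 9-library fit, 1 with quantile normalization and 2 in the 2-group fit, with 1 weight per group, and in the 2-group fit on length-corrected FPKM, a setting chosen after seeing the data. Leaving out 1 library gave 0 to 2. In OVA+PM2.5 against OVA it was 0 with every other setting and 0 to 4 with 1 library left out. In OVA+PM2.5 against Naive it was 1, and 0 with a pseudocount of 0.1, without the filter, with median-ratio factors, in either 2-group fit, with voom on recovered fragments and with the replicate block, and 0 to 2 with 1 library left out. Pathway list genes called numbered 0 in OVA against Naive, with 1 under a pseudocount of 1 and under quantile normalization, 7 in either 2-group fit and 6 with group weights (0 to 6 leaving out 1 library). They numbered 1 in OVA+PM2.5 against OVA, with 0 under a pseudocount of 0.1, the 2-group fits, group weights, the replicate block and voom (0 to 23). They numbered 11 in OVA+PM2.5 against Naive, with 5 under a pseudocount of 0.1, 1 without the filter, 17 with a common sum, 0 with median-ratio factors, in the 2-group fits and with the replicate block, 3 with quantile normalization, 2 with group weights and 4 with voom (0 to 32). In both comparisons with OVA+PM2.5 the highest counts were those without its replicate 2. The number called of all 12982 genes moved between settings too. In OVA+PM2.5 against Naive it was 924 in the 9-library fit, 488 with a pseudocount of 0.1 and 157 of 18274 without the filter. It was 1645 with a common sum, 267 with median-ratio factors, 391 with quantile normalization, 473 with group weights and 413 with voom. In OVA against Naive it was 2, with 18 under quantile normalization, 895 in the 2-group fit and 817 with group weights. In OVA+PM2.5 against OVA it was 28, with 19 under a pseudocount of 0.1, 0 in the 2-group fit and 25 with voom. The cause of these moves was not tested.

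Directions turned for 5 members, none of them past the threshold with all libraries. Adcy9 in OVA against Naive was 0.039 with median-ratio factors, and −0.25 to 0.12 with 1 library left out; Adcy7 in OVA+PM2.5 against OVA was 0.0033 with quantile normalization. Adcy2 in OVA+PM2.5 against Naive was 0.026 with a pseudocount of 1, 0.21 with median-ratio factors, 0.20 with quantile normalization and −1.37 to 0.84 with 1 library left out. With 1 library left out, Adcy2 in OVA+PM2.5 against OVA ran from −0.65 to 1.56, Adcy5 from −0.77 to 0.49 and, against Naive, from −0.23 to 1.03, and Adcy1 against Naive from −0.00036 to 1.33. The common sum moved the median of all genes in OVA against Naive from −0.11 to −0.44, and Adcyap1r1 stayed the highest of the members there. The mean cyclase sum per group, 23.6, 18.6 and 30.1 FPKM as deposited, was 57.2, 43.1 and 59.1 per non-redundant length. With the replicate block the fit called 0, 0 and 50 genes in the 3 comparisons and 0 members. Adcy8 in OVA+PM2.5 replicates 1 and 3 rested on 9 and 2 fragments, so its fold there depends on the pseudocount.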

Other observations

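The length by which the deposited FPKM were divided also bears on levels of other genes. Over the 17541 genes whose FPKM gave whole fragments with the summed transcript length, that length was a median of 1.80 times and at most 20.3 times the non-redundant exon length. A ranking of genes by deposited FPKM therefore places genes with many annotated transcripts too low, while a ratio of the same gene between libraries keeps its value.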
